A study of Mus musculus with 8 samples.

Results

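The 9 genes described here, Mbp, Mobp, Mog, Mag, Cnp, Mal, Cldn11, Ermn and Opalin, encode proteins of the myelin sheath or of the oligodendrocytes that make it. They were chosen by name, and all 9 of the 32502 genes in the tables were present in each of the 8 libraries. Each library held single cells of mouse brain measured by Drop-seq, a droplet method that tags the 3′ end of each captured transcript with a unique molecular identifier (UMI). The groups were WT mice (Irg1/Acod1 +/+) and Acod1 KO mice (Irg1/Acod1 -/-, by an inserted cassette that disrupts the gene in every cell). Both genotypes were littermates on C57BL/6 (C57BL/6N in the study's methods). Ages were not given in the labels used here.

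Tumour-bearing mice received 500 GL261 cells, a syngeneic mouse glioma line, so the tumour cells were of the same line in both genotypes. Brains were taken at an early stage (tumour volume 5 to 10 mm3), an intermediate stage (20 to 25 mm3) or a late stage (30 to 35 mm3), and the tumour core was dissected. Naive mice received no tumour. The study's methods name no matched region for the naive brains, so tumour status and brain region cannot be told apart. There was 1 library for each genotype and stage, from 1 mouse in each tumour-bearing library and from 2 mice in each naive library. The study's methods give different sexes for the WT and KO mice of the early and of the intermediate stage, so genotype and sex cannot be told apart there. Myelin debris was removed with beads from every cell suspension before capture.

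Table totals ranged from 2885345 to 9950713 UMIs. After filtering, 5698 cells remained, with a median of 2597 to 5637 UMIs per cell in the 8 libraries. No more than 10 of 3000 barcodes were shared by any pair of tables. Cells were clustered without the 9 genes and named from other markers, so that each class name below stands for cells like that type. The oligodendrocyte class held 365 cells, 141 from naive and 224 from tumour-bearing mice, and the 12 oligodendrocyte markers used to name it were each above their level in other cells in all 8 libraries. The OPC class (oligodendrocyte precursor cells) held 63 cells, all from tumour-bearing mice, and the tumour class held 3398 cells of those mice and 5 of naive mice, which enter no comparison. Of its 8 markers, 7 or 8 were above their level in other cells in each tumour-bearing library, and all 8 OPC markers were above theirs in OPCs. The cells of all remaining classes are called other cells (1105 from tumour-bearing and 762 from naive mice) and comprise microglia-like, macrophage-like, dendritic, lymphoid, endothelial, mural, astrocytic, ependymal, choroid plexus and neuronal cells. The targeted gene, Acod1, had 0 UMIs in both naive libraries and 10 to 161 in the WT and 26 to 41 in the KO tumour-bearing libraries. The 3′ tags may lie outside the disrupted part, so these counts do not check the genotype labels.

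Myelin is the membrane that oligodendrocytes wrap around axons. Mbp (myelin basic protein) and Mobp hold its cytoplasmic faces together, Mog and Mag stand on its outer and its axon-facing surface, and Cnp keeps channels of cytoplasm open within it. Mal organises its lipid-rich membrane, Cldn11 forms its tight junctions, Ermn is a cytoskeletal protein of late oligodendrocytes, and Opalin is a transmembrane glycoprotein of the same cells. Sox10 and then Myrf are the transcription factors known to switch on myelin genes as precursors mature. In GENCODE release M21 on GRCm38 the 9 are protein-coding genes on 8 chromosomes. Mog lies at chr17:37010743-37023398 and Opalin at chr19:41061710-41077113, both on the minus strand, and Cnp at chr11:100574904-100591729 and Mobp at chr9:120149707-120181484 on the plus strand. The 3′ end of Cnp is overlapped on the opposite strand by Dnajc7, that of Ermn by Galnt5, and that of Mobp on the same strand by Gm38642. The strand setting used in counting is not given in the sources used here, so UMIs of these 3 genes could include reads of the partner.

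The upstream sequences of 4 members are shown because Mog, Opalin and Cnp had the highest fold changes of tumour cells over other cells and Mobp the lowest. Each is the 200 bases from 250 to 51 before the RefSeq start (GRCm38.p6), read 5′ to 3′ on the gene's strand, with 2 kinds of motif in capitals. The Sox10 motif was ACAAAG on either strand (CTTTGT when read on the other), found in 13.6% of 32851 promoters of the same length. The Myrf motif was CTGGCAC (other strand GTGCCAG) or CTGGTAC (other strand GTACCAG), found in 4.83%. Overlaps between the motifs were allowed.
Mog (chr17:37023449-37023648, minus): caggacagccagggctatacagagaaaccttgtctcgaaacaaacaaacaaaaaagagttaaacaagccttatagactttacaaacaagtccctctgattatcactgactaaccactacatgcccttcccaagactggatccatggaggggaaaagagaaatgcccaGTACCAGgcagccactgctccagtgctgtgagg
Opalin (chr19:41077164-41077363, minus): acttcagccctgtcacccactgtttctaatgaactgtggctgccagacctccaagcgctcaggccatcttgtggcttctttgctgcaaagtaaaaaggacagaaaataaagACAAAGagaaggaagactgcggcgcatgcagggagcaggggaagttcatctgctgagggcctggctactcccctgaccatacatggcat
Cnp (chr11:100574689-100574888, plus): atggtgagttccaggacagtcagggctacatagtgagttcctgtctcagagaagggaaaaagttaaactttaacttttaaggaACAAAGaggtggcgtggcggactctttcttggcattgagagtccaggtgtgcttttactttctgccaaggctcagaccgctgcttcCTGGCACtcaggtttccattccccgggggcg
Mobp (chr9:120149492-120149691, plus): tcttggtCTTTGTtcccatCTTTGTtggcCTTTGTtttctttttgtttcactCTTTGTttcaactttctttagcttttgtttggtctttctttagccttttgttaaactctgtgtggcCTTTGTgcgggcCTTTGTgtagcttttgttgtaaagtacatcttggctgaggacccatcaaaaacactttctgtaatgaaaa
Mog held 1 Myrf motif and Opalin 1 Sox10 motif. Cnp held 1 of each, and Mobp held 6 Sox10 motifs. A match marks letters only and not a bound site. Among the other members with a RefSeq promoter, Mag held both motifs in the first of its 3 listed promoters, and Mal, Cldn11 and Ermn held neither in this window.

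In oligodendrocytes none of the 9 myelin genes passed the test of tumour-bearing against naive libraries. Together they made up 3.36% of all UMIs of WT naive oligodendrocytes, 3.39% in KO naive mice and 3.42 to 4.09% in the 6 tumour-bearing libraries. Each of the 365 cells had UMIs of at least 5 of the 9 genes, and 269 cells had all 9. The test (edgeR, quasi-likelihood, with a term for genotype and Benjamini-Hochberg adjustment) called 2.38% of all 2692 genes tested. The median log2 fold change was 0.08 over the members and 0.02 over all genes tested. Levels below are UMIs per 1000000 UMIs of the class in a library (CPM). They count transcript 3′ ends and are not divided by gene length, so each gene is compared with itself across classes and not with the other genes. Fewer transcripts of a gene per cell and more RNA of other genes per cell cannot be told apart on this scale.

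Cldn11, the tight junction claudin of myelin, had the lowest p of the 9. Its level was 2474 and 3349 CPM in the WT and KO naive libraries and 3602 (lowest), 3975 (median) and 4821 (highest) in the tumour-bearing libraries, with KO late at the top. The log2 fold change was 0.48 (SE 0.20, 95% interval 0.06 to 0.89, edgeR adjusted p = 0.36). Mbp was 6642 and 5669 in the naive libraries and 6569, 8370 and 9478 (lowest, median, highest) in the tumour-bearing ones. WT early overlapped the naive pair and the other 5 lay above it, at a log2 fold change of 0.42 (SE 0.20, edgeR adjusted p = 0.48). Mobp was 3138 and 3081 against 3241, 3394 and 4096, with a log2 fold change of 0.16 (SE 0.19, edgeR adjusted p = 0.85).

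Mal was 3645 and 2708 in the naive libraries and 2625, 3891 and 5034 in the tumour-bearing libraries. Its tumour-bearing range enclosed both naive values, and KO was below WT in the naive, early and intermediate pairs but above it in the late pair. Cnp (3168 and 3427 against 3119, 3599 and 3754), Mog (1279 and 1342 against 1172, 1350 and 1733) and Ermn (6291 and 5812 against 5125, 5962 and 6577) overlapped between groups, with log2 fold changes of 0.08, 0.07 and -0.06. Mag, an adhesion molecule that faces the axon, was 5669 and 7238 in the naive libraries and 4560, 5260 and 6686 in the tumour-bearing ones (log2 fold change -0.26, SE 0.19, edgeR adjusted p = 0.70). Opalin was 1260 and 1301 against 628, 1081 and 1387 and was below both naive libraries in 5 of 6, with the lowest level in WT late (log2 fold change -0.31, SE 0.25, edgeR adjusted p = 0.74). An Opalin UMI was found in 52.9 to 90.6% of oligodendrocytes of tumour-bearing libraries and in 76.2 to 87.2% of those of naive libraries. The intervals of the 9 fold changes reached no further than -0.85 and 0.89 on the log2 scale.

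**Figure D1:**
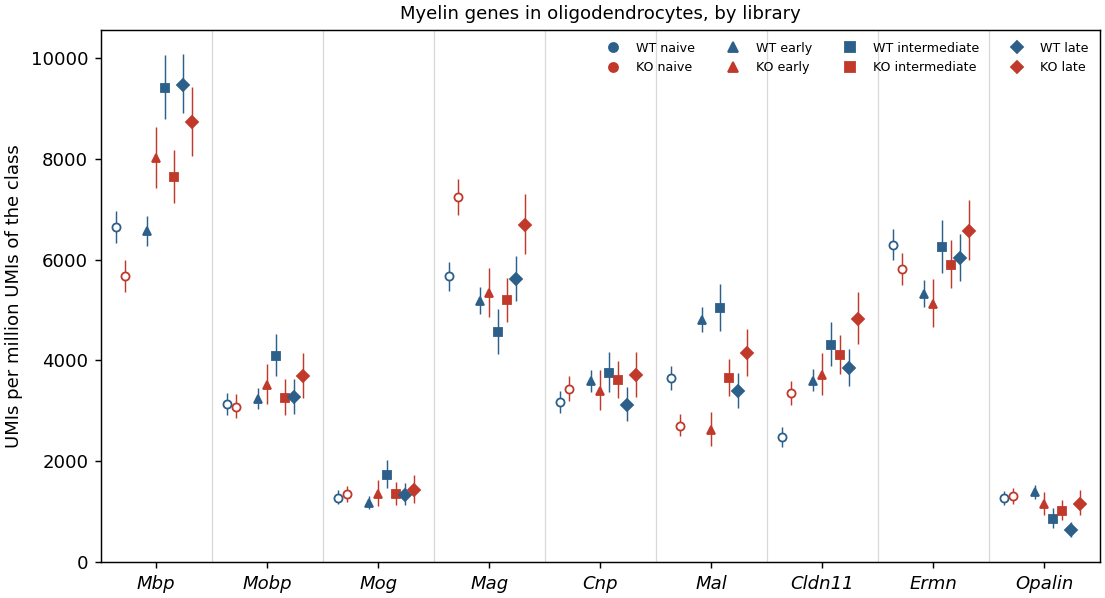
CPM (vertical axis) of the 9 myelin genes in the oligodendrocytes of each library. Open circles are the 2 naive libraries, filled symbols the 6 tumour-bearing libraries (triangle early, square intermediate, diamond late), blue WT and red KO, and bars are exact Poisson 95% intervals, which cover counting error only. None of the 9 genes passed the test between naive and tumour-bearing libraries, and Opalin is lowest in WT late.

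Of 20 other myelin and axon-contact genes tested, 0 passed. None of 12 myelin lipid synthesis genes, 9 oligodendrocyte transcription factors or 3 precursor and early myelinating genes passed either. Among 16 late oligodendrocyte genes, 1 rose, Trf (transferrin, the iron carrier), with a log2 fold change of 1.22 (SE 0.31, edgeR adjusted p = 0.047, higher in 6 of 6 libraries). Apod (apolipoprotein D) had a log2 fold change of 1.16 (SE 0.32, edgeR adjusted p = 0.079). Trf was among the markers that named the class, and the lists were drawn up with earlier results of these data known. Tumour markers moved with tumour status in this class: the 8 tumour-cell markers summed to 76.3 and 129 CPM in naive oligodendrocytes and 142 to 1192 in tumour-bearing ones, with 4 to 6 of 8 at 0 in the naive and 2 or 3 in the tumour-bearing libraries, among them Dppa2 and Etv2 in all 8. The 10 microglia markers moved the other way, at 760 and 701 CPM in naive (0 of 10 at 0) and 249 to 625 in tumour-bearing oligodendrocytes (1 to 8 of 10 at 0). The part of either list in these results was not tested.

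Between KO and WT oligodendrocytes none of the 9 genes passed. In 4 WT and KO pairs matched by stage, 0 of the 9 and 0 of all 2692 genes passed (background 0%). At an unadjusted p under 0.05 there were 138 genes, and DESeq2 called 1. Mal had the furthest value, a log2 fold change of -0.39 (KO against WT, SE 0.20, 95% interval -0.83 to 0.05, edgeR adjusted p = 0.98), and was lower in KO in 3 of 4 pairs. The other 8 lay between -0.11 (Mbp) and 0.19 (Mag).

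Tumour cells carried 2 of the myelin genes, Mog and Opalin, at many times their level in the other cells of the same libraries, with Cnp and, by a smaller margin, Mbp also higher. Mog, the outer-surface glycoprotein, was at 123 (KO early, lowest), 176 (median) and 197 (highest) CPM in the tumour cells of the 6 libraries, against 0, 3.54 and 24.9 in their other cells. The groups did not overlap, and the log2 fold change was 4.26 (SE 0.42, 95% interval 3.34 to 5.17, edgeR adjusted p = 4.8e-06, higher in 6 of 6). Opalin was at 48.8, 92.1 and 108 against 0, 8.52 and 14.9, again without overlap (log2 fold change 3.66, SE 0.36, edgeR adjusted p = 5.1e-06, higher in 6 of 6). In this comparison 63.1% of 15201 genes passed, so a pass alone says little, and the median log2 fold change was 0.12 over all genes and 0.54 over the 9. The share of all genes without overlap between the classes was not counted, so the lack of overlap is a description only. The fold changes of Mog ranged from 3.86 to 4.92 and those of Opalin from 3.25 to 4.33 over 19 alternative settings, all past the threshold.

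Cnp, the enzyme that keeps cytoplasmic channels open, was at 146 (KO late), 232 (median) and 374 (WT late) CPM in tumour cells against 35.0, 54.8 and 97.2 in other cells (log2 fold change 1.82, SE 0.21, edgeR adjusted p = 1.8e-05, higher in 6 of 6). Its antisense neighbour Dnajc7 was at 181 to 263 CPM in tumour cells and 127 to 178 in other cells, and the share of Cnp UMIs that could be its reads was not tested. Mbp was at 148, 183 and 251 against 30.5, 82.5 and 182, so the ranges overlapped (log2 fold change 1.05, SE 0.26, edgeR adjusted p = 0.0042, higher in 5 of 6). The Mbp value was 0.74 (edgeR adjusted p = 0.029) with endothelial, mural and fibroblast cells left out of the other cells and 0.39 (edgeR adjusted p = 0.13) with Leiden clusters. Leiden clustering gave no OPC class, so OPCs were not set apart in that comparison.

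Mobp and Mal were lower in tumour cells than in other cells, each call depending on which cells or libraries entered, and Cldn11, Mag and Ermn did not pass. Mobp was at 3.35, 21.1 and 30.1 CPM in tumour cells against 3.89, 38.5 and 74.7 in other cells (log2 fold change -0.92, SE 0.31, edgeR adjusted p = 0.023). That call was lost without WT early, without WT late or without KO late (edgeR adjusted p up to 0.092). Mal was at 12.8, 20.8 and 28.6 against 19.5, 34.1 and 79.7 (log2 fold change -0.91, SE 0.22, edgeR adjusted p = 0.0040), and at 0.14 (edgeR adjusted p = 0.76) when endothelial, mural and fibroblast cells were left out of the other cells. Without the cell with the most myelin gene UMIs in each class and library it was -0.71 (edgeR adjusted p = 0.071). Cldn11 was at 16.6, 47.2 and 91.3 against 5.66, 22.3 and 125 (log2 fold change 0.54, SE 0.25, edgeR adjusted p = 0.081) and passed in 4 alternatives. These were 1.46 (edgeR adjusted p = 0.0013) with the same endothelial, mural and fibroblast cells left out, 1.26 (adjusted p = 0.0049) without that top cell, 1.15 (adjusted p = 0.0066) with unassigned cells left out and 0.80 (adjusted p = 0.017) without WT late. Mag had a log2 fold change of 0.19 (SE 0.36) and Ermn of -0.37 (SE 0.43).

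**Figure D2:**
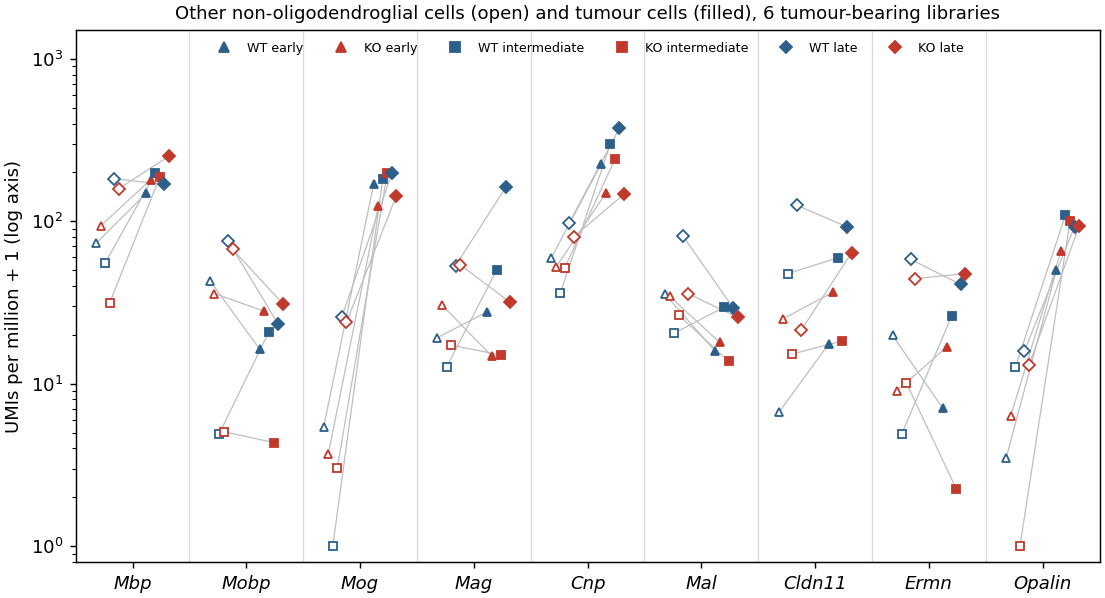
CPM plus 1 on a log axis for the 9 myelin genes in the other cells (open symbols) and the tumour cells (filled symbols) of each of the 6 tumour-bearing libraries, joined by a grey line. Triangles are early, squares intermediate and diamonds late libraries, blue WT and red KO. All lines rise for Mog, Opalin and Cnp, and 5 of 6 rise for Mbp.

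The Mog signal was spread over many tumour cells. A Mog UMI was found in 43.8 to 62.2% of tumour cells per library against 0 to 7.87% of other cells, at pooled median depths of 4871 and 2945 UMIs per cell. After each cell was thinned to 1000 UMIs the shares were 12.3 to 18.1% and 0 to 1.85%. Opalin was found in 30.0 to 42.3% of tumour cells and 0 to 3.70% of other cells, and after thinning in 3.55 to 11.8% and 0 to 0.601%. Pooled over libraries, 1866 of 3398 tumour cells had Mog, 1300 had Opalin and 917 had both, against 714 if each were found independently of the other. Cells with Mog were the deeper ones (median 7740 UMIs against 3096), and the part of depth in the cells with both was not tested. In the KO intermediate library 1 cell held 95 Mog UMIs, 10.1% of that library's, and in the other 5 libraries no cell held over 5.40%.

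The proportions among the 9 genes also differed from those of oligodendrocytes. Tumour cells had 57.0 to 117 Mog UMIs per 100 Mbp UMIs, oligodendrocytes of the same libraries 14.0 to 18.4, and other cells 0 to 14.5. Mog and Opalin together were 24.6 to 38.4% of the myelin gene UMIs in tumour cells, 5.33 to 7.34% in oligodendrocytes and 1.33 to 7.13% in other cells of the tumour-bearing libraries. In the barcodes below the top 1000 of each table, at a median of 359 to 647 UMIs in the 8 libraries, they were 7.12 to 13.1% in the 6 tumour-bearing libraries.

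Tumour cells also expressed genes of the oligodendrocyte lineage. Sox10 was at 210 to 289 CPM in tumour cells and 239 to 432 in oligodendrocytes, against 2.33 to 31.1 in other cells of the 8 libraries. Olig1 (270 to 663 against 11.9 to 73.9) and Bcas1, a gene of early myelinating cells (268 to 566 against 10.2 to 37.3), were likewise far above other cells, while Myrf was at 3.57 to 26.6 in tumour cells and 107 to 180 in oligodendrocytes. Higher in tumour than in other cells were 11 of 18 other myelin genes tested (5 lower), 9 of 16 lipid synthesis genes (1 lower), 8 of 10 transcription factors (2 lower), 11 of 13 precursor genes (0 lower) and 4 of 15 late oligodendrocyte genes (6 lower). Over all 15201 genes tested, 5009 were higher and 4578 lower. The lists' genes took part in the clustering, so their counts describe the class and are no test. The 12 oligodendrocyte markers summed to 953 to 2092 CPM in tumour cells, with at most 1 of the 12 at 0 in a library, and their part in the Mog and Opalin levels was not tested. In 15 of 3398 tumour cells the 9 genes reached 1% or more of UMIs.

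In OPCs Mbp, Cnp and Cldn11 passed as higher than in other cells, and Mog had 1 UMI in all. OPCs were set apart by lineage genes that go with the 9, so these calls describe the class and are no independent test. The class held 5 to 24 cells per library, and only 7 of the 9 genes had enough UMIs to be tested against the other cells of the same libraries, Mog and Opalin being the exceptions. Beside 33.8% of all 7290 genes tested, Mbp, Cnp, Cldn11 and Mag passed. Mbp was at 335 (WT early, lowest), 1106 (median) and 3841 (WT intermediate, highest) CPM against 30.5, 82.5 and 182 in other cells (log2 fold change 2.88, SE 0.30, edgeR adjusted p = 1.2e-19, higher in 6 of 6). Cnp was at 235, 672 and 1025 against 35.0, 54.8 and 97.2, also without overlap (log2 fold change 2.67, SE 0.32, edgeR adjusted p = 6.6e-15). The share of all 7290 genes without overlap was not counted here either. Cldn11 was at 69.1, 401 and 675 against 5.66, 22.3 and 125 and was higher in 5 of 6 libraries (log2 fold change 3.10, SE 0.41, edgeR adjusted p = 9.8e-13).

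The size of these values depended on the libraries and cells that entered. With a library left out, Mbp ranged from 2.21 to 3.31 and Cldn11 from 2.34 to 3.95, all past the threshold. With at least 10 cells per sum, which left WT early and WT late, Cnp alone passed (2.46, edgeR adjusted p = 0.047), while Mbp was at 1.33 (adjusted p = 0.10) and Cldn11 at 2.90 (adjusted p = 0.33).

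Much of the precursor signal sat in a few cells. The 209 Mbp UMIs of the 63 cells lay in 24 cells, and the 6 cells with most held 78.0% of them. In each library the cell with most held 42.4 to 98.7% of the Mbp UMIs. Without the cell with the most myelin gene UMIs in each class and library, the log2 fold change was 1.47 for Mbp (edgeR adjusted p = 5.2e-04), 2.23 for Cnp and 2.92 for Cldn11, while that of Mag fell from 2.02 (edgeR adjusted p = 3.9e-05) to 0.42 (edgeR adjusted p = 0.72). Mag was found in 10 of the 63 cells, and Mog in 1 cell with 1 UMI. No UMI of any of the 9 was found in 13 cells, and in 4 cells they made up 1% or more of UMIs, with 1.98% the highest. Mal, Mobp and Ermn did not pass, with log2 fold changes of -0.02, -0.16 and 1.00, and Ermn passed at 1.86 (edgeR adjusted p = 0.013) without WT late.

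Of the 12 oligodendrocyte markers, 2 to 7 were at 0 in the OPCs of a library (Hapln2 in all 6), and the 12 summed to 1412 to 15979 CPM, highest in WT intermediate and KO late, the libraries with the most Mbp. The OPCs of WT late stood apart in the tumour-cell markers, whose 8 genes summed to 6192 CPM there and to 784 to 1434 in the other 5 libraries (7365 in WT late tumour cells), with 3 to 5 of 8 at 0. Their 8 OPC markers summed to 4696 CPM, against 7827 to 8881 in the other 5 libraries. The part of either marker list in the levels of the 9 genes was not tested. Gpr17, a receptor of committed precursors, was at 506 to 1480 CPM in OPCs and 0 to 24.3 in oligodendrocytes.

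**Figure D3:**
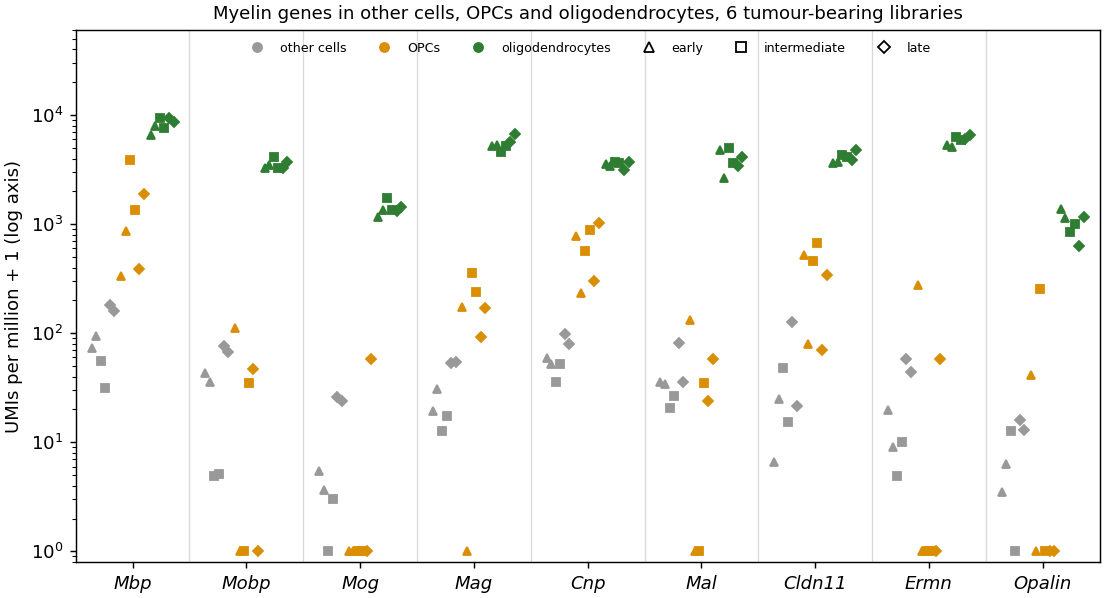
CPM plus 1 on a log axis for the 9 myelin genes in other cells (grey), OPCs (orange) and oligodendrocytes (green) of the 6 tumour-bearing libraries, with the stage given by symbol. Mbp, Cnp and most Cldn11 points of OPCs lie between the other 2 classes, and OPC points at the foot of the axis are libraries with 0 UMIs.

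Summed over all other cells the 9 genes were at 153 to 708 CPM, which is 0.428 to 1.93% of the level in oligodendrocytes of the same library, and 31.8 to 67.6% of other cells had at least 1 UMI of any member. They exceeded 1% of UMIs in 0 to 3 other cells per library. In the barcodes below the top 1000 of each table they were 0.217 to 0.496% of UMIs. The level in other cells was 557 and 563 in the naive libraries, within the tumour-bearing range, and highest in WT late. Single classes lay above this range. The 9 summed to 1883 CPM in WT late microglia-like cells (167 UMIs in 20 cells) and to 1663 in WT naive ciliated ependymal-like cells (346 UMIs in 32 cells), against 921 in the OPCs of WT late and 1176 in those of KO early. In the WT naive ependymal-like cells Ermn had 98 UMIs (471 CPM), of which 1 cell held 57.1%, and in those of KO naive it had 2 UMIs (20.0 CPM).

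Among the classes of other cells, Mal was highest in endothelial cells and Cldn11 in mural cells and fibroblasts, a class whose parts were not separated. Of the 8 markers of that class, Kcnj8 was at 0 in every library with at least 5 such cells, and Rgs5 and Vtn also in KO intermediate. Its leading genes included Col1a2, Dcn and Col1a1, while the mural marker Rgs5 was among the leading genes of the endothelial class. Among the remaining classes of other cells, the highest sums were those of WT late microglia-like cells, at 214 CPM for Mal and 169 for Cldn11. Mal, a lipid-raft protein that is also known from other polarised cells, was at 388 and 406 CPM in endothelial cells of the WT and KO naive libraries and at 198, 379, 363, 411 and 195 in those of WT early, KO early, KO intermediate, WT late and KO late, the tumour-bearing libraries with at least 5 such cells. It was found in 33.3 to 77.8% of endothelial cells and was 69.1% of their myelin gene UMIs in naive and 75.5% in tumour-bearing libraries, against 9.55% and 11.4% in oligodendrocytes. Mal was the only member with enough UMIs for a test of tumour-bearing against naive endothelial cells and did not pass (log2 fold change -0.48, SE 0.31, edgeR adjusted p = 0.51), beside 4.69% of 1450 genes. The value was called lower with Leiden clusters and with a minimum of 500 genes per cell (lowest edgeR adjusted p 0.033). Cldn11 was 84.8% of the myelin gene UMIs of mural cells and fibroblasts in tumour-bearing libraries, with 67 UMIs in 11 of 30 cells, and was at 79.9 and 120 CPM in the naive libraries and 193 and 398 in the KO intermediate and WT late libraries, the 2 with at least 5 such cells.

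**Figure D4:**
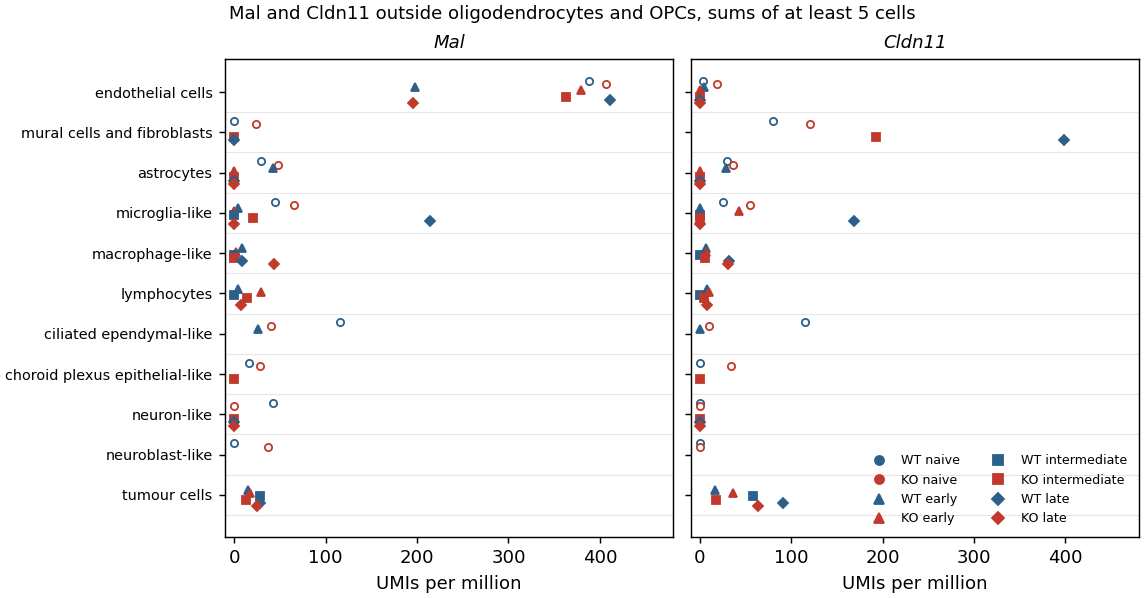
CPM (horizontal axes) of Mal and Cldn11 in each class outside oligodendrocytes and OPCs, for every library with at least 5 cells of the class. Open circles are naive libraries, triangles early, squares intermediate and diamonds late libraries, blue WT and red KO. Mal is at 195 to 411 in endothelial cells and Cldn11 at 79.9 to 398 in mural cells and fibroblasts, and the WT late microglia-like cells lie at 214 and 169.

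Cnp was also present in other non-myelinating cells. In lymphocytes it was at 48.6 (lowest), 112 (median) and 143 (highest) CPM in 5 libraries and passed against the other cells (log2 fold change 0.90, SE 0.27, edgeR adjusted p = 0.013, higher in 4 of 5), beside 43.4% of 6318 genes. The call was lost with Leiden clusters, with DESeq2, without WT early and without KO intermediate. Dnajc7 overlaps Cnp as stated above. In naive astrocytes Cnp was at 164 CPM in both libraries and made up 33.1% of the myelin gene UMIs, against 9.74% in naive oligodendrocytes. Per 100 Mbp UMIs, naive astrocytes had 153 and 250 Cnp UMIs and naive ciliated ependymal-like cells 116 and 260. The ependymal-like ratios rested on as few as 5 Mbp UMIs in a library. The part of RNA from other cells in these counts was not tested. No member had enough UMIs for the test of astrocytes (686 genes, 1.31% called).

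In microglia-like cells 3 members could be tested between tumour-bearing and naive libraries, and none passed, beside 15.8% of 3276 genes. Mag was at 89.6 and 188 CPM in the naive libraries and at 0 (lowest), 41.4 (median) and 214 (WT late) in the tumour-bearing ones (log2 fold change -0.99, SE 0.57, edgeR adjusted p = 0.25). In WT late 1 cell held all 19 Mag UMIs of the class, and the cell with most Mbp held 78.2% of the Mbp UMIs. Without that library the Mag value was -1.79 (edgeR adjusted p = 0.0069), and without the top cell of each class and library it was -1.93 (edgeR adjusted p = 0.016). Mbp (0.60) and Cnp (-0.31) did not pass.

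**Figure D5:**
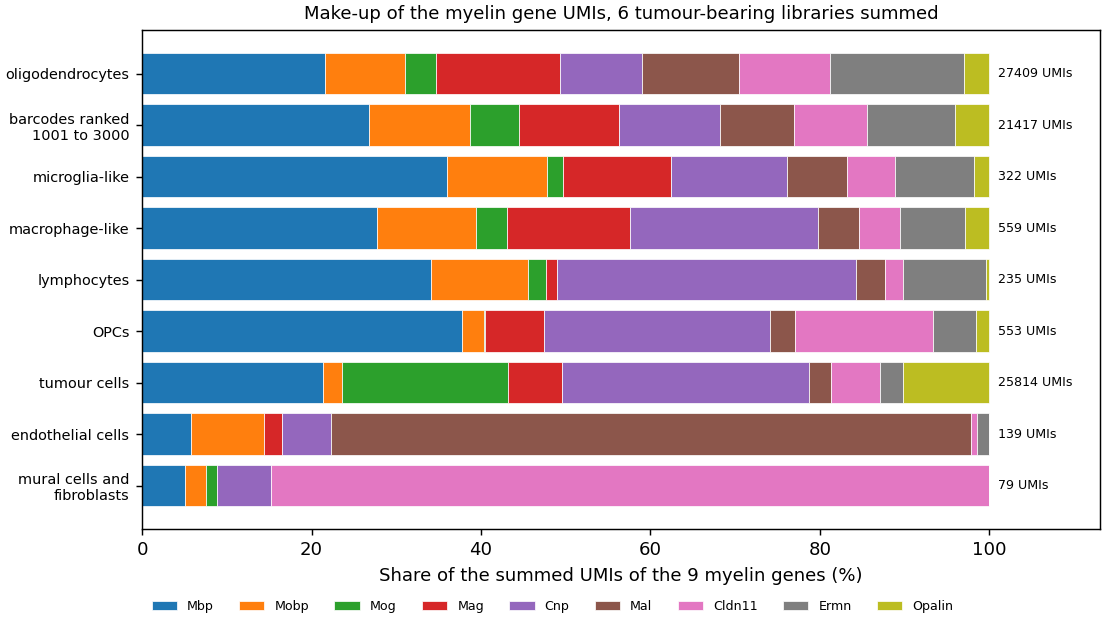
Share of each of the 9 genes in their summed UMIs (horizontal axis, percent) for 8 cell classes and for the barcodes below the top 1000 of each table, each summed over the 6 tumour-bearing libraries, with the number of UMIs at the right. Mog and Opalin take a larger share in tumour cells, Mal 75.5% in endothelial cells and Cldn11 84.8% in mural cells and fibroblasts.

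Across the 72 sums of a class in a library genes whose level ran closely with the summed 9 genes included Ugt8a (Pearson r 0.90), Fa2h (0.88), Tspan2 (0.87) and 1700047M11Rik (0.85), out of 3616 genes ranked. Of these, Ugt8a, Fa2h and Tspan2 were also markers in the naming list, and sums of the same library share its depth. Of the members, each of which is part of the sum it is set against, Mbp ran closest to the summed level (r 0.92) and Mal (0.79) and Mog (0.80) least so.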

How the data were processed

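Single cells of mouse brain were measured by Drop-seq in 8 libraries. The authors made the deposited count tables (whole UMI counts per gene and barcode, not normalised). The submitters' processing notes name bcl2fastq 2.0, STAR and GRCm38 (mm10), and the strand setting and counting filters are not given in the sources used here. Libraries took their group from the labels.

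The 1000 barcodes richest in UMIs entered from each table. A gene had to occur in 30 or more cells and a cell to show 1000 or more genes. Clustering used 50 principal components of log2(CPM + 1) and left out the 9 genes (Rtsne 0.17, perplexity 50, and HDBSCAN of scikit-learn 1.9.0, minimum 19 cells). Cells left unassigned took the majority cluster of their 15 nearest cells, and 1 mixed myeloid cluster was divided with leidenalg 0.10.2. Clusters were named from marker lists that hold none of the 9. Doublets were kept. As an alternative, cells marked by Scrublet were removed (9 to 11 in each of 3 libraries) or, in the 5 libraries where it marked only 1 to 4 cells, the 5% of cells with the highest score. UMIs were summed over at least 5 cells of a class in a library and tested with edgeR 4.0.16 (R 4.3.3, TMM, filterByExpr, quasi-likelihood test), with Benjamini-Hochberg adjustment over all genes tested and a threshold of 0.05. Genotype was a term in tumour-bearing against naive, stage a block in KO against WT, and the library a block between classes. Each group of genotype and stage is 1 library, so p-values rest on the spread over libraries of different stages. Intervals of levels and shares are exact 95% Poisson or binomial intervals of counting error only. The test was checked on simulated data.

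All 9 genes were named in every comparison. From lists of other myelin proteins, myelin lipid synthesis, transcription factors, precursor genes and late oligodendrocyte genes, counts were given with the genes of largest called change and of highest level. Some genes that this rule or the likeness of pattern would name are not reported here. The members and lists were chosen with earlier results of these data known. Sox10, Olig1, Bcas1, Myrf, Gpr17 and Apod were named to describe the classes. Alternatives were members kept in the clustering, another seed, unassigned cells left out, Leiden clustering, a minimum of 500 genes, DESeq2 1.42.0, no filter, library totals, totals without the members, at least 10 cells per sum and each library left out. Chosen after seeing the data were leaving out the cell with most member UMIs and leaving vascular cells (here endothelial cells, mural cells and fibroblasts) out of the other cells.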

Additional observations from a re-analysis of the deposited data

Results flagged for a closer look

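Among 41 groups of 4 to 10 libraries, 6 held a library whose distance to the nearest other library was a large part of the whole range (Dixon's criterion), which chance gives in about 1 in 20 groups of normally distributed values. Groups of low counts with zeros, such as Mog in OPCs, do not follow that rate. In tumour cells, Mag was at 160.7 CPM in WT late and at 13.7 to 49.0 in the other 5 libraries, and a Mag UMI was found in 28.8% of the WT late tumour cells. In the other cells of WT late, Mal was at 79.73 CPM (19.4 to 34.9 in the other 5 tumour-bearing libraries) and Cldn11 at 124.6 (5.66 to 46.7). In OPCs, Mog was at 56.93 CPM in KO late, from 1 UMI, and at 0 in the other 5 libraries. Ermn in OPCs was at 273.9 CPM in WT early (0 to 56.9 in the others), and Opalin at 256.1 in WT intermediate (0 to 40.6 in the others), where the class held 5 cells.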

How the results depend on the processing

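Of 1142 alternative values, 1009 counted as the same. For fold changes that meant the same direction and side of the threshold. For counts called it meant a ratio within a set limit, and for levels a shift under their standard deviation. Fold changes turned direction in 51, and 1 of these was called in the fit reported or in the alternative, Mal in tumour cells (0.14 with endothelial, mural and fibroblast cells left out). The cause of the changes below was not tested. Depth limited the tests most in astrocytes, endothelial cells, microglia-like cells and lymphocytes, where 0, 1, 3 and 4 of the 9 members had enough UMIs. No OPC class was found with Leiden clustering, so OPCs were not set apart from the other classes in that setting. Replicate numbers could not be used for pairing, every library being replicate 1 of its group. The fits reported were paired in another way, by stage in KO against WT and by library between classes.

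Genes called in tumour-bearing against naive oligodendrocytes (64) were 39 with members in the clustering, 207 without a filter and 3 to 86 with a library left out, the 3 without KO naive. In KO against WT (0) they were 1 with members in the clustering, with Leiden clustering, with a minimum of 500 genes and with DESeq2, 23 without a filter and 1 to 10 with a library left out. In OPCs at least 10 cells per sum left 669 genes and 1 member (Cnp) called. In lymphocytes 4423 genes were called without a filter, and members called were 2 (Leiden), 3 (minimum of 500 genes, no filter, at least 10 cells) and 0 (DESeq2), and 0 to 3 with a library left out. In microglia-like cells 1 member was called with doublets removed and without the top cell, and with a library left out 25 to 637 genes and 0 to 1 members. In endothelial cells (68) genes called were 41 with unassigned cells left out, 299 with Leiden clustering, 272 with a minimum of 500 genes (1 member in each of these 2), 192 with doublets removed, 150 without a filter, 131 with at least 10 cells and 29 to 131 with a library left out. In astrocytes (9) they were 18 with another seed, 32 with a minimum of 500 genes, 15 with DESeq2, 59 without a filter, 17 with at least 10 cells and 5 to 23 with a library left out. The 9 members were at 33360 CPM in naive oligodendrocytes with members in the clustering.

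The log2 fold changes that turned direction were these. In oligodendrocytes of tumour-bearing against naive mice, Mog was -0.022 with members in the clustering. In KO against WT, members in the clustering gave Mobp 0.059, Mog 0.086 and Ermn 0.045, a minimum of 500 genes gave Cnp -0.014, and Mog was 0.0076 with doublets removed, 0.010 on library totals and 0.014 without the top cell. In tumour cells Leiden clustering gave Mag -0.093 and Cldn11 -0.24, and leaving out vascular cells gave Mag -0.12. In OPCs Ermn was -0.52 with members in the clustering and -0.54 with unassigned cells left out. Mobp and Mal in OPCs were 0.38 and 0.53 on library totals and 0.30 and 0.45 with at least 10 cells, and Mal was 1.03 without vascular cells. In lymphocytes Mbp was -0.48 and Mobp -0.080 with Leiden clustering, and Mobp was -0.20 with a minimum of 500 genes, -0.0028 without a filter, -0.15 without the top cell and -0.0067 without vascular cells. In microglia-like cells Cnp was 0.096 with members in the clustering. With a library left out, values that crossed 0 ranged from -0.0013 (without WT intermediate) to 0.11 for Mog and from -0.13 to 0.0072 (without WT naive) for Ermn in oligodendrocytes of tumour-bearing against naive mice. In KO against WT they ranged from -0.10 to 0.048 for Mobp, -0.060 to 0.088 for Mog, -0.031 to 0.10 for Cnp and -0.025 to 0.36 for Opalin. They ranged from -0.18 (without WT late) to 0.47 for Mag in tumour cells, and in OPCs from -0.32 to 0.20 for Mobp and -0.094 to 0.48 for Mal. In lymphocytes they ranged from -0.25 to 0.53 for Mobp and -0.012 to 0.47 for Mbp, and in microglia-like cells from -1.01 to 0.53 for Cnp and -0.25 to 1.52 for Mbp.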
